A study of Mus musculus with 6 samples.

Results

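Circadian clock genes are the 10 genes Npas2, Clock, Arntl, Per1, Per2, Cry1, Cry2, Nr1d1, Nr1d2 and Dbp, picked by their symbols among the 16588 genes of the counts table, and all 10 were present. They were measured by RNA-seq in 6 libraries of group 2 innate lymphoid cells (ILC2s), tissue lymphocytes that answer IL-33 with type 2 cytokines. There were 3 libraries labelled Cnr2 KO, here called KO-labelled, and 3 wild-type (WT) libraries labelled C57BL/6, Cnr2 being the gene of the cannabinoid receptor CB2. Both groups came from the lungs of mice given intranasal recombinant mouse IL-33, 0.5 µg on each of 3 days, with cells taken on day 4, sorted, and held in culture for 18 h. The labels name lung for every sample although the series title names adipose tissue, and they give no sex, age, cell numbers or hour of the day at collection. They do not describe the Cnr2 allele or say that replicates came from separate animals, so the spread between libraries may be technical.

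In mammalian cells the clock is a feedback loop of transcription. BMAL1 (encoded by Arntl) pairs with CLOCK or with its relative NPAS2 and binds E-box sequences in the genes of its own repressors, the PER and CRY proteins. The same pair drives the nuclear receptors REV-ERB alpha and beta (Nr1d1 and Nr1d2), which compete with ROR receptors at sequences called ROREs and repress Arntl, and it drives Dbp, an activator at D-box sequences. Levels of most of these transcripts normally rise and fall over the day, and each library here is a single time.

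These genes were chosen with the values of this comparison known, so their levels and differences are a description without a test. Total counts were 17867541 to 19399819 in the KO-labelled libraries and 19056174, 129617689 and 19091963 in WT replicates 1, 2 and 3. WT replicate 2 thus had 6.88 times the average depth of the other 5 libraries. Cnr2 itself went against its label: its level was 7.49 ± 0.0627 CPM (its count scaled to library depth) in the KO-labelled libraries and 3.69 ± 0.449 CPM in WT (SD, n = 3 each; edgeR adjusted p = 2.11e-05), so the groups are named below as labelled. All 11 ILC2 markers looked for were counted, and summed to 9761 to 10593 CPM in the KO-labelled libraries and 7711 to 8390 CPM in WT. Of these, 8 were higher and 2 lower in every KO-labelled library, against 34.1% higher and 34.8% lower over all tested genes. The 8 included Rora, and Gata3 at 1052 to 1084 CPM, against 279 to 304 CPM in WT. The 2 that were lower in every KO-labelled library were Il13 at 65.1 to 92.8 CPM, against 147.8 to 152.6 CPM in WT, and Areg, while Il5, the most abundant, overlapped. Markers of other cells summed to at most 114.3 CPM in a library, and several sums did not overlap between groups. T cell markers (4 of 7 in the table, mostly Cd3g) summed to 18.5 to 22.1 CPM in the KO-labelled libraries and 7.25 to 7.66 CPM in WT, although Trac, the constant gene of the T cell receptor alpha chain, was lower, at 0.308 to 0.694 CPM in the KO-labelled libraries and 1.26 to 1.80 CPM in WT. The B cell marker Cd79b (1 of 4) stood at 25.1 to 26.3 CPM in the KO-labelled libraries and 16.1 to 17.2 CPM in WT. Dendritic markers (4 of 5, mostly Xcr1, with Zbtb46 lower in every KO-labelled library and Flt3 and Itgax at 0 in some libraries) summed to 20.4 to 25.6 CPM in the KO-labelled libraries and 9.98 to 12.6 CPM in WT. Epithelial markers (3 of 4) summed to 45.5 to 51.6 CPM in the KO-labelled libraries and 12.5 to 25.4 CPM in WT. Among them Epcam was higher in every KO-labelled library, at 44.5 to 50.01 CPM, against 10.5 to 11.4 CPM in WT, and Krt18 was lower, at 0.924 to 1.61 CPM, against 2.01 to 5.36 CPM in WT. Krt8 was at 0 in every KO-labelled library and in WT replicate 3. The endothelial marker Pecam1 (1 of 3) stood at 39.3 to 40.3 CPM in the KO-labelled libraries and 105.9 to 114.3 CPM in WT. Macrophage markers (2 of 5, Adgre1 at 0 in WT) summed to 3.24 to 4.99 CPM in the KO-labelled libraries and 0.998 to 1.66 CPM in WT. Eosinophil, basophil and mast cell markers (3 of 5, Mcpt8 lower in every KO-labelled library and Fcer1a at 0 in WT replicate 1) summed to 3.70 to 4.33 CPM in the KO-labelled libraries and 1.58 to 3.43 CPM in WT. The erythroid marker Hba-a1 (1 of 3) stood at 4.67 to 5.77 CPM in the KO-labelled libraries and 0.683 to 1.00 CPM in WT. The ILC3 cytokine genes Il17a, Il17f and Il22 (3 of 4 markers) were at 0 in every KO-labelled library and summed to 3.80 to 4.04 CPM in WT. NK and ILC1 (2 of 5, Tbx21 at 0 in every KO-labelled library and in WT replicate 1), neutrophil (2 of 4, S100a9 at 0 in some libraries) and fibroblast markers (3 of 4) overlapped between the groups, and none of these 3 sums was above 4.27 CPM. Ribosomal protein genes took 1.49 to 1.73% of counts in the KO-labelled libraries and 2.36 to 2.52% in WT. Every list's sum or share without overlap had an exact permutation p = 0.1, the smallest that 3 against 3 allows (two-sided, 0.136 after adjustment over 15 measures), and the part of these measures in the results below was not tested.

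The stretches before the start sites of 5 clock genes, and a site in Arntl, are shown because they hold motifs of the clock or belong to the gene with the largest difference (RefSeq, GRCm38.p6). Windows of 300 bases, 250 before and 50 after each start, were available for 9 of the 10 genes (13 windows), Per2 being the exception. Capitals mark the E-box, with the letters CACGTG, a variant of it that reads CACGTT on one strand and so AACGTG on the other, or the RORE core, searched as TAGGTCA and also with the letters TGGGTCA. Bases inside annotated exons are left out except at the Arntl site. The starts are those of RefSeq. For Npas2 and Per1 the stretch shown lies inside the gene span given below, which is from GENCODE.
Npas2, chr1:39194022-39194211, plus strand: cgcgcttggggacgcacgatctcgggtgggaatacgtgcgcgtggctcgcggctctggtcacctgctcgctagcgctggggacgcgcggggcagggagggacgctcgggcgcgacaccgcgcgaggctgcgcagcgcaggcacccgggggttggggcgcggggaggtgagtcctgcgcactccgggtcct
Per1, chr11:69098699-69098947, plus strand: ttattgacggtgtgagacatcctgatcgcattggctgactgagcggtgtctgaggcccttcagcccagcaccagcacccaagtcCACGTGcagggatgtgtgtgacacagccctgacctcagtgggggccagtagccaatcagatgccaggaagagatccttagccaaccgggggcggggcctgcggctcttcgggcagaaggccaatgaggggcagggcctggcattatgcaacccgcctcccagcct
Cry1, chr10:85185065-85185304, minus strand: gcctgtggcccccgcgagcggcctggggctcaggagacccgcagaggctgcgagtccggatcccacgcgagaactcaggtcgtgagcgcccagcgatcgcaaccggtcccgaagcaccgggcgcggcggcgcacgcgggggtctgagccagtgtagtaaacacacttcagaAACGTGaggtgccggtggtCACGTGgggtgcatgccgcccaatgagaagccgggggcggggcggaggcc
Cry2, chr2:92434070-92434319, minus strand: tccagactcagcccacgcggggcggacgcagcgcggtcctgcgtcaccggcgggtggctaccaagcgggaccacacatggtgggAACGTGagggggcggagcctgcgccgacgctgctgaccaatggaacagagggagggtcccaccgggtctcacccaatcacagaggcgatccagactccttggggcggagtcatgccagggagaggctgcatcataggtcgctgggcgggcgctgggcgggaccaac
Nr1d1, chr11:98775378-98775627, minus strand: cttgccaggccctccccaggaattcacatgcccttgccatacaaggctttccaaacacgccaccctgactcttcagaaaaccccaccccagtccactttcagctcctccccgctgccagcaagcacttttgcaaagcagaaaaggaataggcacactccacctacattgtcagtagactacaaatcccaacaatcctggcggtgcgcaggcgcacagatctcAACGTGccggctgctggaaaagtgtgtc
Arntl site, chr7:113207531-113207557, plus strand: aggcagaaagTAGGTCAgggacggagg

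The E-box lay 166 bases before a RefSeq start of Per1, whose other window held no match, and 60 before the start of Cry1. It was in 2 of 13 windows of clock genes, against 7.15% of the 32851 windows of all genes. By gene it was in 2 of 9, against 8.09% of all genes. The E-box variant lay 79 bases before the start of Cry1, 166 before that of Cry2 and 28 before that of Nr1d1, in 3 of 13 windows against 4.68% of all. The RORE core lay 31 bases after the start in 1 of the Arntl windows, which overlap each other, against 6.45% of all windows. The D-box words TTATGTAA and TTACGTAA, found in 1.06% of all windows, and the cyclic AMP response element TGACGTCA, found in 1.79%, were in none of the 13. Both strands were searched and no 2 of these matches overlapped. GC content was 47.0 to 76.67% in the 13 windows, against a median of 52.67% over all windows. Its part in these shares was not tested. Of the genes with a match, Cry1, Nr1d1 and Arntl had all KO-labelled libraries above all WT libraries, whereas Per1 and Cry2 overlapped. Of the genes searched without a match, Npas2, Nr1d2 and Dbp also lay above WT in this way, and Clock overlapped. The same held for 34.1% of all tested genes. A link between motifs and levels was not tested.

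Among the activators of the loop, Npas2 was the clock gene that differed most, Arntl differed less, and Clock overlapped between the groups. Npas2 (chromosome 1, 39193731 to 39363236, GRCm38) had 434, 382 and 284 counts in the KO-labelled libraries, against 25, 123 and 12 counts in WT replicates 1, 2 and 3. As CPM scaled by the trimmed mean of M-values (TMM), its level was 22.3, 20.4 and 15.7 in the KO-labelled libraries, against 1.31, 0.952 and 0.634 in WT. Every KO-labelled library was far above every WT library. The log2 fold change was 4.34 (SE 0.19), or 20.2-fold higher, the 30th highest of 12150 genes tested. In bulk RNA, more RNA per cell and more cells that make it cannot be told apart. Npas2 shares 0 exon bases with another annotated gene.

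Arntl (chromosome 7, 113207465 to 113314126) had levels of 41.1, 35.9 and 40.1 CPM in the KO-labelled libraries, against 20.2, 20.4 and 20.8 CPM in WT. The groups lay far apart, and the WT libraries were nearly equal. The log2 fold change was 0.93 (SE 0.08), or 1.91-fold higher. Clock (chromosome 5, 76209868 to 76304792), whose protein is the usual partner of BMAL1, had levels of 23.1, 17.8 and 19.7 CPM in the KO-labelled libraries, against 18.7, 17.6 and 14.2 CPM in WT. Its groups overlapped, and the log2 fold change was 0.25 (SE 0.11).

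The transcripts of the 2 alternative partners of BMAL1 thus stood in different proportion, and their proteins were not measured. Per kilobase of annotated exon, Npas2 made up 73.5, 76.6 and 69.6% of the summed Npas2 and Clock level in the KO-labelled libraries, against 16.8, 13.4 and 11.3% in WT. The mean share was 73.2 ± 3.53% in the KO-labelled libraries and 13.8 ± 2.73% in WT (SD, n = 3 each). Npas2 was the more abundant of the pair in every KO-labelled library, and Clock in every WT library.

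**Figure D1:**
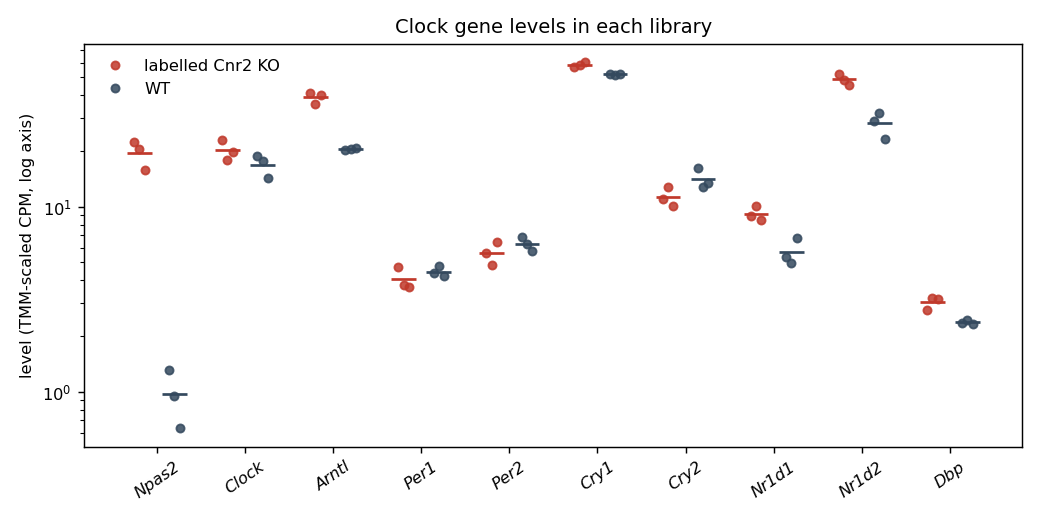
Level of each clock gene in each library, in TMM-scaled CPM on a log axis, with points for libraries and lines for means of 3. Npas2 stands at 15.7 to 22.3 CPM in the KO-labelled libraries and 0.634 to 1.31 CPM in WT, whereas Per1, Per2, Cry2 and Clock overlap.

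The repressors Per1 and Per2, whose proteins close the loop, overlapped between the groups. Per1 (chromosome 11, 69095217 to 69109960) had levels of 4.72, 3.79 and 3.66 CPM in the KO-labelled libraries, against 4.36, 4.78 and 4.23 CPM in WT. Per2 (chromosome 1, 91415982 to 91459324) had levels of 5.60, 4.86 and 6.43 CPM in the KO-labelled libraries, against 6.88, 6.26 and 5.76 CPM in WT. In both genes WT libraries lay among or just above the KO-labelled ones, with log2 fold changes of -0.15 (SE 0.18) and -0.16 (SE 0.16). They were thinly counted, at 66 to 92 and 91 to 116 counts in the KO-labelled libraries.

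The cryptochromes, which repress the BMAL1 pair most directly, differed little or overlapped between the groups. Cry1 (chromosome 10, 85131700 to 85185064) had levels of 57.1, 57.9 and 60.3 CPM in the KO-labelled libraries, against 52.2, 51.5 and 51.8 CPM in WT. The groups did not overlap, but the distance was small, at a log2 fold change of 0.17 (SE 0.06), or 1.13-fold. Cry2 (chromosome 2, 92403646 to 92434043) had levels of 10.9, 12.7 and 10.1 CPM in the KO-labelled libraries, against 16.1, 12.7 and 13.4 CPM in WT. The groups met at 12.7 CPM, and the log2 fold change was -0.31 (SE 0.12). Cry1 carried 90.8 ± 1.13% of the summed Cry1 and Cry2 level per kilobase in the KO-labelled libraries and 87.5 ± 1.33% in WT.

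The genes of both REV-ERB receptors, the second, repressing arm of the loop, had higher values in every KO-labelled library. Nr1d1 (chromosome 11, 98767932 to 98775333) had levels of 8.88, 10.1 and 8.48 CPM in the KO-labelled libraries, against 5.36, 4.94 and 6.76 CPM in WT. Nr1d2 (chromosome 14, 18204054 to 18239127) had levels of 52.4, 48.5 and 45.3 CPM in the KO-labelled libraries, against 29.0, 32.1 and 23.3 CPM in WT. The log2 fold changes were 0.72 (SE 0.15) for Nr1d1 and 0.77 (SE 0.10) for Nr1d2, or 1.65-fold and 1.70-fold. Nr1d2 made up 75.2 ± 1.91% of the pair's level per kilobase in the KO-labelled libraries and 73.5 ± 6.49% in WT, and these shares overlapped. Dbp (chromosome 7, 45705088 to 45710203), a direct output of the loop, had levels of 2.77, 3.20 and 3.16 CPM in the KO-labelled libraries, against 2.36, 2.43 and 2.32 CPM in WT. The groups did not overlap, with a log2 fold change of 0.35 (SE 0.22) that rests on 54 to 60 counts in the KO-labelled libraries.

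Some of these counts could hold reads of a neighbour, since the strand setting of the counting is not given in the sources used here. Dbp shares 539 exon bases with Sphk2 on the other strand, which had 504.1 to 573.6 counts in the KO-labelled libraries and 631.6, 4421 and 705.2 in WT. Nr1d1 shares 263 exon bases with Thra, also on the other strand, which had 114 to 147 counts in the KO-labelled libraries and 122, 658 and 131 in WT. Cry2 shares 295 bases with D930015M05Rik and Arntl 33 with Gm45355. The values of Dbp, Nr1d1 and Cry2 are uncertain to that extent, and the part of the neighbours was not tested.

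**Figure D2:**
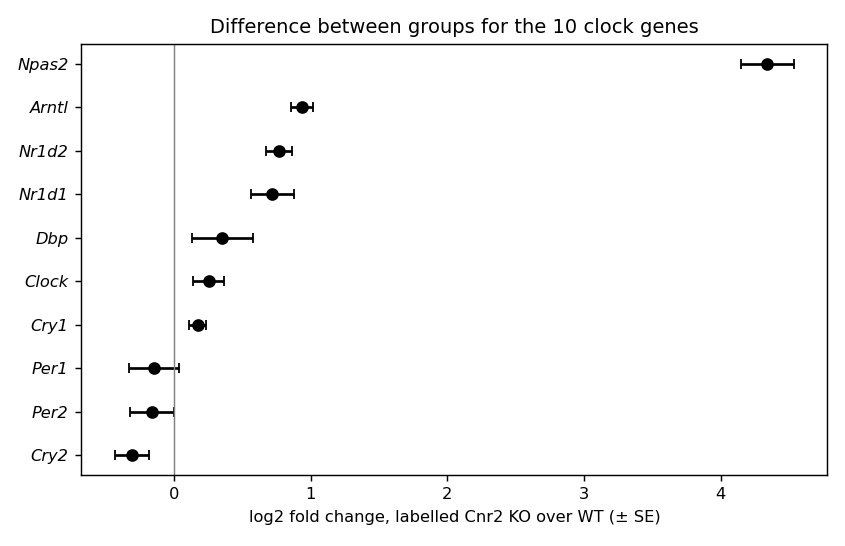
Log2 fold change of each clock gene, KO-labelled libraries over WT (points), with bars of 1 SE from the edgeR fit over 3 libraries a group. Npas2 lies at 4.34, Arntl, Nr1d2 and Nr1d1 between 0.72 and 0.93, and the others between -0.31 and 0.35.

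Of the 10 genes, 5 met the call used for all genes (an adjusted p under 0.05 in edgeR's quasi-likelihood fit, by Benjamini and Hochberg's method) with higher values in the KO-labelled libraries. These were Npas2, Arntl, Nr1d1, Nr1d2 and Cry1. A single one, Cry2, met it with lower values, and 4 did not meet it. The same call was met by 66.3% of all 12150 genes tested, 33.1% higher and 33.2% lower, and all 10 clock genes passed the filter on low counts. In 6 of the 10 the groups did not overlap, each time with higher values in the KO-labelled libraries, against 68.9% of all tested genes in either direction, 34.1% higher and 34.8% lower. The median log2 fold change was 0.30 over the 10 genes and 0.01 over all tested genes, and the median absolute value was 0.33 over the 10 genes and 0.40 over all. These counts are beside the background for scale only, since the genes were picked on this comparison. Cry1 no longer met the call without replicate 3 of the KO-labelled group (log2 fold change 0.15) or without WT replicate 2 (0.16). Cry2 no longer met it without replicate 1 (-0.29) or 3 (-0.24) of the KO-labelled group or without WT replicate 1 (-0.22). Clock met it without replicate 2 of the KO-labelled group (0.34) or without WT replicate 1 (0.31).

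Ordered by level per kilobase of exon in CPM, Cry1 (17.5), Nr1d2 (9.01), Arntl (5.19), Npas2 (4.07), Nr1d1 (2.97), Cry2 (1.78), Clock (1.47), Dbp (1.02), Per2 (0.961) and Per1 (0.721) followed each other in the KO-labelled libraries. The ranges of Cry2 and Clock, of Dbp and Per2, and of Per2 and Per1 overlapped. In WT the order was Cry1 (15.5), Nr1d2 (5.20), Arntl (2.72), Cry2 (2.23), Nr1d1 (1.85), Clock (1.23), Per2 (1.08), Dbp (0.793), Per1 (0.791) and Npas2 (0.202). There the ranges of Cry2 and Nr1d1, of Clock and Per2, and of Dbp and Per1 overlapped. Npas2 thus stood 4th of 10 in the KO-labelled libraries and last in WT, while the first 3 places were the same.

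Ratios to Arntl were taken for 5 targets of the BMAL1 pair. They are built from the levels given above, where Arntl was 1.91-fold higher, so they restate those levels and are no separate result. The ratio of Per1 to Arntl CPM within a library was 0.115, 0.106 and 0.0912 in the KO-labelled libraries, against 0.216, 0.235 and 0.204 in WT. That of Per2 to Arntl was 0.144 ± 0.0141 in the KO-labelled libraries and 0.308 ± 0.0315 in WT, and that of Dbp to Arntl 0.0785 ± 0.0109 in the KO-labelled libraries and 0.116 ± 0.00378 in WT (SD, n = 3 each). These 3 ratios did not overlap between groups. The ratios of Nr1d1 to Arntl (0.236 ± 0.0390 in the KO-labelled libraries and 0.278 ± 0.0430 in WT) and of Nr1d2 to Arntl (1.25 ± 0.113 in the KO-labelled libraries and 1.38 ± 0.232 in WT) overlapped.

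Of the other factors of the loop, 7 of 10 were in the table and tested, of which 4 rose and 2 fell in the KO-labelled libraries, where 66.3% of all tested genes met the call, 33.1% higher and 33.2% lower. Their median log2 fold change was 0.79, against 0.01 over all tested genes. Arntl2, Rorb and Bhlhe41 are not analysed here. Adjusted p-values below are from edgeR's quasi-likelihood test over all 12150 genes. This list and those below were chosen with earlier results of these data known, so their p-values are a description and not independent support. The largest rise was that of Hlf, which with Tef and Dbp forms the PAR bZIP family of D-box activators. Hlf had levels of 231.4, 208.3 and 235.4 CPM in the KO-labelled libraries, against 47.3, 50.3 and 49.7 CPM in WT, a 4.57-fold difference (log2 fold change 2.19, SE 0.06, adjusted p = 2.70e-16). Tef had levels of 31.8, 31.1 and 28.9 CPM in the KO-labelled libraries, against 17.0, 17.0 and 19.5 CPM in WT (0.79, SE 0.09, adjusted p = 1.84e-07). Nfil3, the D-box repressor that opposes these activators and is also needed for innate lymphoid development, fell. Its levels were 94.8, 98.6 and 98.8 CPM in the KO-labelled libraries, against 208.6, 207.6 and 210.9 CPM in WT (log2 fold change -1.10, SE 0.05, adjusted p = 2.41e-13). Hlf made up 87.2 ± 1.04% of the level of Hlf, Tef and Dbp per kilobase in the KO-labelled libraries and 70.6 ± 1.06% in WT, without overlap.

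Per3, the third PER gene, rose while Per1 and Per2 overlapped between the groups. Per3 had 90, 74 and 111 counts in the KO-labelled libraries, against 29, 173 and 41 counts in WT, with levels of 4.62, 3.95 and 6.15 CPM in the KO-labelled libraries and 1.52, 1.34 and 2.17 CPM in WT. The log2 fold change was 1.62 (SE 0.26, adjusted p = 1.88e-05), and Per3 made up 23.1 ± 3.18% of the PER level per kilobase in the KO-labelled libraries and 8.60 ± 2.54% in WT. Ciart, a repressor of the BMAL1 pair also known as CHRONO, fell to 5.34, 6.36 and 5.27 CPM in the KO-labelled libraries, against 11.5, 12.2 and 13.1 CPM in WT (log2 fold change -1.12, SE 0.13, adjusted p = 4.29e-07). Per3 lies in the same stretch as Camta1 in the annotation, with 0 shared exon bases.

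Rora, a receptor that acts at ROREs against the REV-ERB receptors, rose, and Bhlhe40 did not pass the test. ILC2s need Rora for their development, and it is also 1 of the ILC2 markers given above. Rora had levels of 270.0, 259.6 and 286.7 CPM in the KO-labelled libraries, against 119.3, 122.5 and 121.9 CPM in WT (log2 fold change 1.17, SE 0.05, adjusted p = 1.79e-13). Bhlhe40, a repressor at E-boxes, had levels of 145.7, 153.5 and 141.9 CPM in the KO-labelled libraries, against 144.7, 146.0 and 158.2 CPM in WT (-0.02, SE 0.05, adjusted p = 0.707). Bhlhe40 overlapped between the groups.

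**Figure D3:**
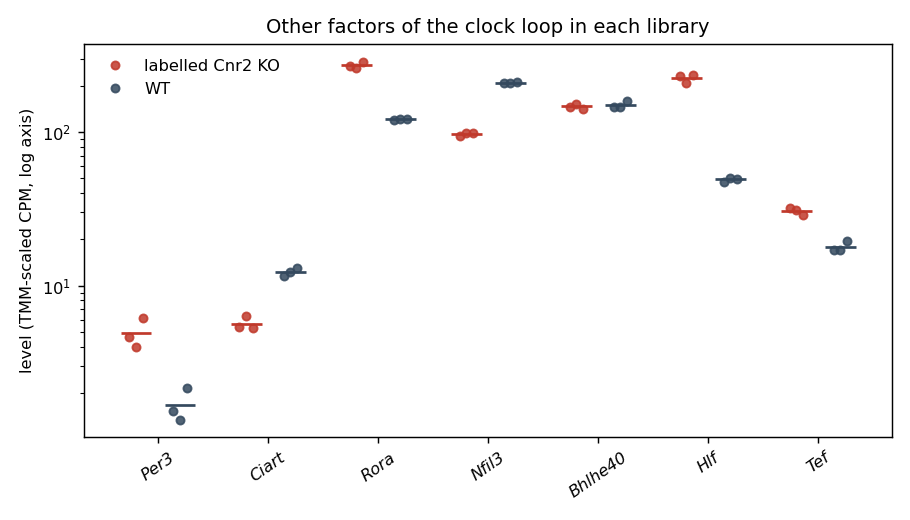
Level of the 7 other loop factors in each library, in TMM-scaled CPM on a log axis, with points for libraries and lines for means of 3. Hlf, Rora, Per3 and Tef lie higher in every KO-labelled library, Nfil3 and Ciart lower, and Bhlhe40 overlaps.

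**Figure D4:**
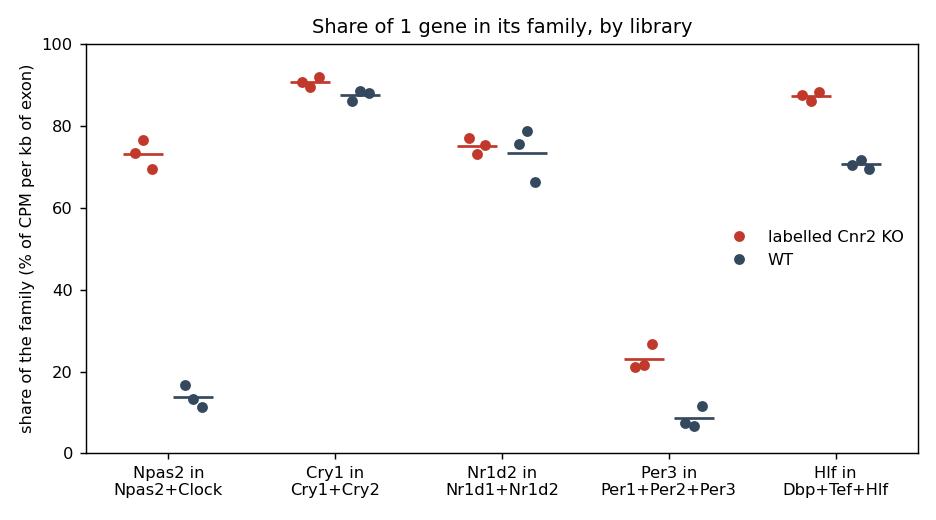
Share of 1 gene in the summed level of its family, in percent of CPM per kilobase of exon, with points for libraries and lines for means of 3. Npas2 takes 69.6 to 76.6% in the KO-labelled libraries and 11.3 to 16.8% in WT, whereas the shares of Nr1d2 overlap.

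Of 13 enzymes and ligase subunits that modify clock proteins, 12 were tested, 1 was higher and 6 lower, with a median log2 fold change of -0.21. Over all tested genes 33.1% were higher and 33.2% lower. The lower ones were Csnk2a1, Csnk2a2 and Csnk2b, the subunits of casein kinase 2, which phosphorylates BMAL1 and PER2, with Prkaa1, a catalytic subunit of AMP-activated kinase, which phosphorylates CRY1, and the ubiquitin ligase subunits Fbxw11 and Fbxl21. Csnk2a2 averaged 31.7 ± 3.65 CPM in the KO-labelled libraries and 56.0 ± 3.86 CPM in WT (log2 fold change -0.81, adjusted p = 8.01e-08), and Prkaa1 averaged 33.2 ± 1.13 CPM in the KO-labelled libraries and 49.0 ± 1.27 CPM in WT (-0.57, adjusted p = 6.91e-07). Fbxl21, whose protein binds CRY proteins, had 5, 1 and 6 counts in the KO-labelled libraries, against 33, 166 and 47 counts in WT (-3.02, SE 0.50, adjusted p = 3.11e-05). The higher one was Gsk3b, a kinase of several clock proteins (0.27, adjusted p = 0.00541). Its groups overlapped, at 61.6, 58.2 and 49.5 CPM in the KO-labelled libraries, against 45.3, 49.8 and 44.4 CPM in WT. Csnk1d and Csnk1e, the main PER kinases, did not pass (-0.02 and -0.16, adjusted p = 0.751 and 0.0802). Csnk1d overlapped between the groups, whereas Csnk1e was lower in every KO-labelled library.

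Of 13 coregulators of the loop tested, 7 were higher and 4 lower, against 33.1% higher and 33.2% lower over all tested genes, and the median log2 fold change was 0.22. Among the higher ones were 2 parts of the corepressor complex used by REV-ERB receptors, Ncor1 (245.2 ± 11.7 CPM in the KO-labelled libraries and 166.6 ± 11.1 CPM in WT, log2 fold change 0.56, adjusted p = 3.08e-08) and Tbl1xr1 (0.65, adjusted p = 7.04e-09). Hdac3, the deacetylase of that complex, did not pass (-0.05, adjusted p = 0.436), nor did Tbl1x, another of its parts (-0.10, adjusted p = 0.118). The largest difference was that of Kat2b, an acetyltransferase and coactivator, at 30.0 ± 1.40 CPM in the KO-labelled libraries and 14.4 ± 1.17 CPM in WT (1.05, adjusted p = 5.13e-09). Kmt2a, a histone methyltransferase that acts with CLOCK, fell (-0.56, adjusted p = 2.12e-07).

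Of 8 output genes that are rhythmic in many tissues, 2 were higher and 4 lower, with a median log2 fold change of -0.51, where 66.3% of all tested genes met the call in either direction. Tspan4, a tetraspanin, averaged 24.2 ± 1.75 CPM in the KO-labelled libraries and 70.2 ± 4.37 CPM in WT (log2 fold change -1.54, adjusted p = 1.62e-12). Nampt, which makes a precursor of NAD, and Noct, which encodes nocturnin, fell as well (-0.62, adjusted p = 6.31e-08, and -0.70, adjusted p = 7.69e-07). Tsc22d3, a glucocorticoid-induced gene, rose (0.78, adjusted p = 1.16e-06), as did Wee1, a kinase that holds back mitosis (0.58, adjusted p = 2.38e-07). Usp2, a deubiquitinase counted in this list and among the modifiers, had 2, 16 and 3 counts in the KO-labelled libraries, against 18, 112 and 14 counts in WT. It did not meet the call (-1.19, adjusted p = 0.0638), and it passed the filter on low counts only through WT. All 4 lists were drawn from textbook roles with earlier results of these data known.

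**Figure D5:**
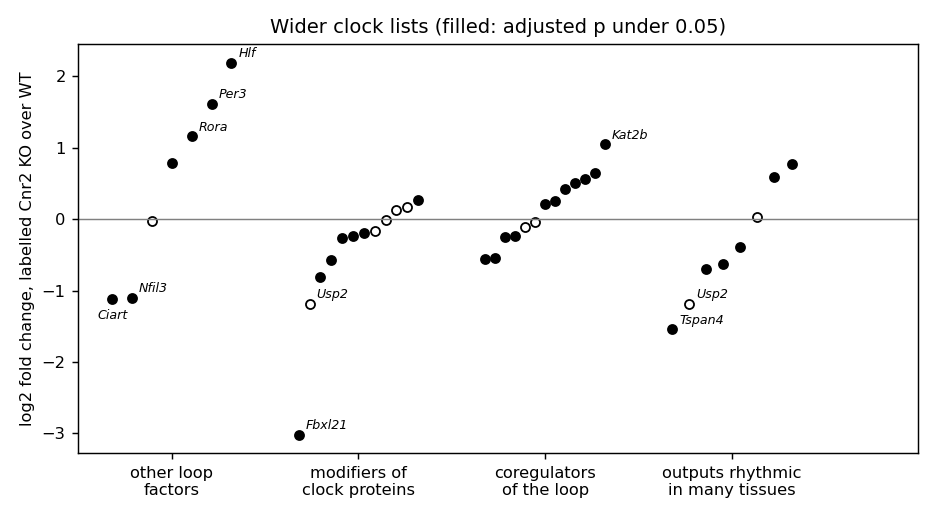
Log2 fold change of each tested gene in the 4 wider lists, KO-labelled libraries over WT, with filled points for edgeR adjusted p under 0.05 and names for genes past 1 in either direction. Hlf is highest at 2.19 and Fbxl21, which passed the filter on low counts only through WT, lowest at -3.02.

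Profiles over the 6 libraries nearest to those of Npas2 and Cry2, the clock genes with the highest and lowest log2 fold change, were sought. Euclidean distance of centred log2 CPM was used among 10548 genes. Genes whose symbols begin with Gm and digits or end in Rik were left out of that search. Anxa1, which encodes annexin A1, lay 0.41 from Npas2, with 85.1 ± 4.31 CPM in the KO-labelled libraries and 4.09 ± 1.72 CPM in WT. Pcsk1, a prohormone protease, lay at 0.58 and the pseudogene Ndufs5-ps, whose reads may be shared with its parent gene, at 0.78. Nearest to Cry2 were BC052040 at 0.11, Sipa1l3 at 0.13 and Nmnat1, an NAD-making enzyme, at 0.15. Among the clock genes themselves, Cry1 and Dbp lay closest together (0.26), Arntl and Nr1d2 were 0.43 apart, and Npas2 was at least 4.21 from each of the others. The profiles were centred but not scaled, so a distance largely follows the log2 fold changes already given. Shared regulation was not tested.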

How the data were processed

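RNA was sequenced from 6 libraries of sorted, cultured lung ILC2s, with cDNA made from 10 pg of RNA by a low-input kit, per the labels' protocols. The deposited table holds expected counts, not scaled, of which 59.1 to 81.2% lay within 0.02 of a whole number. Partek 10.0, STAR 2.7.8, DESeq2 and mm10 are named in the submitters' processing notes with no role or order, and how reads were counted, or on which strand, is not stated there. With 0 blank and 0 repeated symbols, values were rounded and tested in edgeR 4.0.16 (R 4.3.3): TMM scaling, filterByExpr (minimum count 10, total 15), quasi-likelihood test of genotype over all 6 libraries, and Benjamini-Hochberg adjustment over the 12150 genes kept of 16588. The SE is the absolute log2 fold change over the square root of F. Levels per kilobase use the union of exons in GENCODE M21 (GRCm38, the build called mm10), which matched 16233 genes. Intervals are absent and errors are SDs over 3 libraries.

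The clock genes and all lists were chosen with earlier results of these data known. Some genes of the lists are not reported here and are left out of the counts. The rule for named genes took Cnr2, the 10 clock genes, every tested other loop factor, the up to 4 called genes with the largest change in each of the other 3 lists, and the 3 nearest profiles of the 2 extreme clock genes (at least 1 CPM, log2 CPM with a prior count of 2). Symbols that begin with Gm and digits or end in Rik were not candidates for the nearest profiles. Other modifiers, Hdac3, Tbl1x, Usp2 and Wee1 were named after their values were seen. Within each group no pair of libraries agreed within sampling noise (a mean chi-square of 4.11 to 8.94 a gene), so none was taken as a repeat deposit of another. Alternatives were DESeq2 1.42.0 and its size factors, limma-voom (limma 3.58.1), other filters and thresholds, a replicate block, thinning of WT replicate 2, and leaving out each library.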

Additional observations from a re-analysis of the deposited data

How the results depend on the processing

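Over 14 alternatives, 7 of the 10 clock genes kept their direction and their side of the threshold in each. Npas2 stayed between 4.23 and 4.47 on the log2 scale, Arntl between 0.90 and 0.99, Nr1d2 between 0.65 and 0.89 and Nr1d1 between 0.59 and 0.84. Cry2 was the only clock gene called lower. The count of clock genes called lower was 0 in DESeq2, in limma-voom and at adjusted p under 0.01, where 1, 0 and 1 were lower at an unadjusted p under 0.05, and 0 to 1 when each library was left out. The sign changed in Bhlhe40, near 0, at -0.054 to 0.010 when each library was left out. The causes were not tested. With a replicate block, 6 clock genes were called higher, Clock joining at 0.25, and 1 lower, while 4061 of all genes were higher and 4113 lower, against 4019 and 4034. Libraries of the same replicate number shared little, with correlations of their deviations of 0.07, 0.01 and 0.04. Per kilobase of the longest transcript, Npas2 took 68.7 ± 3.87% of the Npas2 and Clock level in the KO-labelled libraries and 11.4 ± 2.32% in WT. By that length the ranges of Nr1d2 and Arntl overlapped in both groups, and in WT Dbp (1.29) stood above Per2 (1.08). Levels per kilobase depend on the length used, with Arntl at 9.77 in place of 5.19 in the KO-labelled libraries. With 100 bases before the start, 1 clock gene window held the E-box in place of 2. Low counts limit Per1, Per2, Dbp, Per3 and Fbxl21, and 3 libraries a group limit every value.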
